A study of Homo sapiens with 15 samples.

Results

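The response of A549 cells to 12 h of interleukin-13 (IL-13) was measured on 6 of the 15 arrays of the study. These are the 3 arrays titled IL13_12h and the 3 titled ctr_0h, chosen by title alone, and all 22283 probe sets of each array were read. A549 is an established epithelial line from a human lung adenocarcinoma, which the labels call a bronchial line. The 12 h arrays hold RNA of cells given IL-13, at a dose that the labels do not state, and the 0 h arrays hold RNA of cells that received no treatment. The other 9 arrays, 3 per group, are IL-13 at 4 h, IL-13 at 24 h and controls at 24 h. No untreated group at 12 h is labelled, so IL-13 and time in culture change together in the main comparison and cannot be told apart within it. The labels do not say that arrays of a group came from separate cultures, so each p-value is set by how far arrays of a group scatter, and that scatter may be technical only.

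IL-13 is a type 2 cytokine of asthma. It binds a receptor of IL13RA1 and IL4R, whose kinases JAK1 and TYK2 phosphorylate the transcription factor STAT6. STAT6 then induces target genes in airway epithelium, among them feedback inhibitors of the SOCS family such as CISH.

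The keratins KRT7, KRT8 and KRT18 were bright on all 6 arrays, with a mean signal of 10540 for KRT18 at 0 h and 11840 at 12 h. The other epithelial markers were dimmer: KRT19 had mean signals of 137.9 and 162.9, and CDH1 of 61.1 and 112.2. EPCAM and CLDN4 were too dim to be tested. The alveolar and airway secretory markers SFTPB, SFTPD, NKX2-1, AQP5 and SCGB1A1 were below the brightness needed for a test, whereas the alveolar marker SFTPC was tested and not called, with mean signals of 72.8 at 0 h and 68.6 at 12 h. The summed signal of 18 epithelial markers ran from 19440 to 21590 at 0 h and from 20250 to 22150 at 12 h. Most of that sum came from KRT7, KRT8 and KRT18. The summed signal of 20 markers of leukocytes, fibroblasts and endothelium ran from 906.5 to 970.3 at 0 h and from 969.9 to 1072 at 12 h, and the leukocyte marker PTPRC had mean signals of 12.5 and 10.7. None of the 5 markers of other cell types that were bright enough to test passed the threshold. Of the 8 tested epithelial markers, TJP1 and KRT7 were called lower. The TJP1 call was lost without any 1 of the 6 arrays, and KRT7 stood at -0.42 on its bright probe set and at 0.65 on a dim one. The trimmed mean of the deposited signal, with 2% cut at each end, was 150 on every array. Median signals were 59.1 ± 1.79 at 0 h and 62.4 ± 3.21 at 12 h (mean ± SD, n = 3). The 3'/5' signal ratio of beta-actin, a measure of RNA integrity, was 1.0 ± 0.066 at 0 h and 1.08 ± 0.045 at 12 h, and its part in the results was not tested. In bulk RNA, a change in the number of cells that express a gene and a change in RNA per cell cannot be told apart.

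At 12 h of IL-13 the largest falls included TRIB3 and CHAC1, targets of the amino acid stress factor ATF4, the matricellular genes CCN1 and CCN2, the growth factor EREG and the chemokine CXCL2, while the STAT feedback gene CISH, hexokinase HK1, complement C3 and cathepsin L (CTSL) rose. Of 6884 genes tested, 285 (4.14%) were called different from 0 h, 107 (1.55%) higher and 178 (2.59%) lower. A gene is called where limma's Benjamini-Hochberg adjusted p was under 0.05, and all differences are log2 differences ± SE of signal plus a pseudocount of 20, with 3 arrays per group. The median difference over all tested genes was 0.00708, and over the called genes the median size was 0.566. At least 2-fold changes were few: 4 genes (0.0581%) rose and 15 (0.218%) fell that far. The 3 arrays of 1 group lay wholly above those of the other for 1630 genes (23.7%), and 283 of the called genes (4.11% of those tested) were among them. An unadjusted p under 0.05 was held by 1165 genes (16.9%). Scaling each array on the median of all its probe sets gave 47 higher and 211 lower calls, so that 18.2% of the calls were higher against 37.5%. The number of calls fell to between 136 and 187 when any 1 of the 6 arrays was left out. It was 136 without 0 h array b or 12 h array c, 154 without 0 h array c, 161 without 0 h array a, and 187 without 12 h array a or b.

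**Figure D1:**
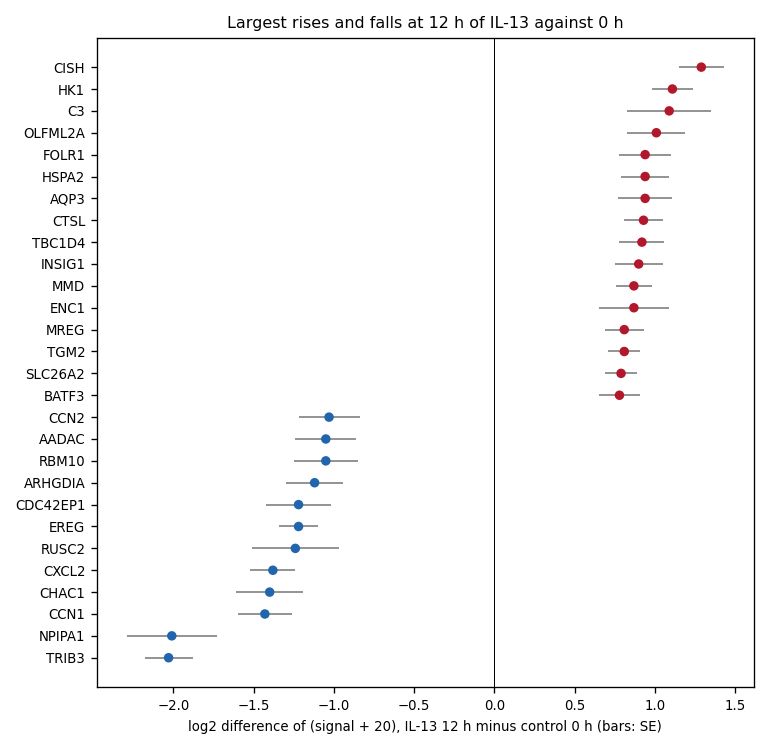
Log2 difference of signal plus 20 between IL-13 at 12 h and control at 0 h for the 16 largest rises (red) and 12 largest falls (blue), with bars of 1 SE from limma (n = 3 arrays per group). The falls reach -2.03 for TRIB3 and the rises reach 1.29 for CISH.

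CISH, which encodes a SOCS family inhibitor of cytokine receptor signalling, had the largest rise. Its signal was 71.3, 101.4 and 62.5 on the 0 h arrays and 212.6, 188.9 and 266.2 on the 12 h arrays. Every 12 h array lay above every 0 h array, and the difference was 1.29 ± 0.14 (2.44-fold, limma adjusted p = 6.01e-05). CISH is read by a probe set of the kind that can cross-hybridize. TGM2, a transglutaminase that crosslinks proteins and is known to be induced by IL-4 and IL-13, had signals of 964, 720 and 804 at 0 h and 1531, 1440 and 1410 at 12 h. It rose by 0.81 ± 0.10 (adjusted p = 0.000167), and its other 3 probe sets stood 0.34 to 0.93 higher. BCL6, a transcriptional repressor that competes with STAT factors for DNA, had signals of 52.2, 49.5 and 45.5 at 0 h and of 85.5, 99.4 and 125.1 at 12 h. It rose by 0.77 ± 0.16 (adjusted p = 0.00999), with its second probe set at 0.20, and lost its call without 12 h array c (adjusted p = 0.0599). The AP-1 family factor BATF3 rose by 0.78 ± 0.13 (adjusted p = 0.00133), from a mean signal of 146.3 to 262.5.

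These 4 were the called members among the 14 tested genes of a list of IL-13 and STAT6 response genes of airway epithelium, all higher, against 1.55% of all tested genes. Of the 14, 10 had a difference above 0, and the list's median was 0.32 beside 0.00708 over all tested genes. The mucin MUC5AC, a classic product of IL-13-treated goblet cells, was not called (0.09 ± 0.24, adjusted p = 0.889), and its other 3 probe sets, all dim, stood between -0.16 and -0.02. The chemokine CCL26 has no probe set that carries its symbol alone and was not analysed here. GCNT3, an enzyme that branches the sugar chains of mucins, rose by 0.59 ± 0.14 (adjusted p = 0.02) and was the only called gene among the 14 tested mucin and mucin glycosylation genes. Its call was lost without 0 h array a or c or 12 h array b or c.

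Receptor and kinase genes did not pass the test at 12 h. IL13RA1 had signals of 335, 321 and 353 at 0 h and 430, 481 and 368 at 12 h. The 12 h arrays lay above the 0 h arrays, but the difference of 0.33 ± 0.13 was not called (adjusted p = 0.203), and the 3 other probe sets ran from -0.13 to 0.20. STAT6 had a difference of 0.03 ± 0.11 and JAK1 one of -0.15 ± 0.08. TYK2 had signals of 140.0, 134.0 and 120.3 at 0 h and 29.3, 98.2 and 104.8 at 12 h, and its difference of -0.75 ± 0.28 was not called (adjusted p = 0.160). Its 12 h arrays were all lower, with array a far below the other two. IL4R, IL13RA2 and the feedback inhibitor SOCS1 were too dim to be tested. CISH was the only called gene among 17 tested members of the receptor and JAK-STAT list, whose median difference was 0.031.

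The CISH promoter is shown because it holds several copies of the palindrome that STAT dimers bind. Promoter sequences are from RefSeq on GRCh38.p14, and 78 of the 100 named genes had an entry. The 250 bases upstream of the CISH start (chr3:50611775-50612024, minus strand) are printed 5′ to 3′, with matches to TTCNNNGAA in capitals.
CISH: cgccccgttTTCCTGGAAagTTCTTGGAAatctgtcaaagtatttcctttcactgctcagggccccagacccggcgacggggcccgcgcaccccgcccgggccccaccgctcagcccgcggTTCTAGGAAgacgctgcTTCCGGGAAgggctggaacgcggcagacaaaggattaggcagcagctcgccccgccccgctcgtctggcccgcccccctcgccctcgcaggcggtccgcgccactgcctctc
The window searched ran from 250 bases before to 50 bases after each start, on both strands, which read alike for this palindrome. CISH and BCL6 each held 4 matches, and they were the only 2 of 5744 tested genes with a promoter entry that held 4 or more. TTCNNNGAA was present in 10 of 88 promoters of genes called higher (11.4%), in 6 of 146 of genes called lower (4.11%), in 6.44% of the promoters of all tested genes and in 7.88% of all 27305 promoters. The form that STAT6 is known to prefer, TTC and GAA with a spacer of any 4 bases, was present in 2.27% of promoters of genes called higher, 4.11% of genes called lower and 4.72% of tested genes. These matches describe letters in a window and are not shown to be sites.

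The neighbour of CISH, MAPKAPK3, which encodes a kinase downstream of p38, starts 103 bases away on the opposite strand. Its window holds 2 of the 4 CISH matches, at chr3:50611878-50611886 and chr3:50611895-50611903. CISH and MAPKAPK3 are thus counted as 2 of the 10 promoters of genes called higher, although they share these bases. MAPKAPK3, named after its values were seen, had signals of 163.6, 157.3 and 163.1 at 0 h and 331.4, 214.9 and 262.3 at 12 h. It rose by 0.67 ± 0.13 (limma adjusted p = 0.00502), with its second probe set at 0.41. At 4 h of IL-13 its mean signal was 195.5, and its difference from 0 h was 0.26 ± 0.13 (adjusted p = 0.493), against 1.44 ± 0.14 (adjusted p = 1.95e-05) for CISH.

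HK1, TBC1D4, CTSL and INSIG1 were among the other large rises. HK1, the hexokinase that commits glucose to the cell, had signals of 235.7, 219.1 and 235.9 at 0 h and 568.6, 440.0 and 543.0 at 12 h. Its groups were far apart, and it rose by 1.11 ± 0.13 (2.16-fold, adjusted p = 6.01e-05). ENO1, the enolase of glycolysis, was the other called gene of the 19 tested in the glycolysis list, at 0.32 ± 0.08. Its call was lost when any array but 12 h array b was left out, and the list's median was 0.018. TBC1D4, a regulator of glucose transporter traffic, rose by 0.92 ± 0.14. CTSL, a lysosomal cysteine protease, had signals of 773, 863 and 819 at 0 h and of 1510, 1969 and 1363 at 12 h, and rose by 0.93 ± 0.12 (adjusted p = 0.000195). In the list of 23 tested lysosomal genes it was the only called rise, and PSAP, the saposin precursor, was the only called fall (-0.46 ± 0.11), lost without 0 h array a or b or 12 h array b or c. INSIG1, which holds sterol-sensing SCAP in the endoplasmic reticulum, had signals of 121.5, 105.3 and 131.6 at 0 h and 258.0, 214.7 and 250.5 at 12 h. It rose by 0.90 ± 0.15 (adjusted p = 0.00133), with its other 2 probe sets at 0.44 and 1.27. None of the other 21 tested genes of cholesterol and fatty acid synthesis was called.

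Complement C3, the central complement protein, had signals of 18.3, 64.1 and 66.2 at 0 h and of 162.3, 89.9 and 128.1 at 12 h. The groups did not overlap, and it rose by 1.09 ± 0.26 (2.13-fold, adjusted p = 0.0204). That call was lost without 0 h array a, the dimmest, or without 12 h array a or c (highest adjusted p = 0.0965). SLC26A2, a sulfate transporter, rose by 0.79 ± 0.10 from signals of 427.8 to 480.8 at 0 h to signals of 762.3 to 842.6 at 12 h. AQP3, a water and glycerol channel, rose by 0.94 ± 0.17 from a dim start of 27.1, 47.3 and 46.7, and its dimmer probe sets stood at -0.25 and 0.44. FOLR1, a folate receptor, rose by 0.94 ± 0.16 on its bright probe set, while its second probe set stood at -0.15 and the mean of both was not called (0.39, adjusted p = 0.105). OLFML2A rose by 1.01 ± 0.18, MMD by 0.87 ± 0.11, MREG by 0.81 ± 0.12 and HSPA2, a chaperone of the HSP70 family, by 0.94 ± 0.15. ENC1 rose by 0.87 ± 0.22 (adjusted p = 0.0317), and its call was lost when any array except 12 h array a was left out. MSX1, a homeobox factor downstream of BMP, rose by 0.69 ± 0.13 and was the only called gene of 17 tested TGF-beta and BMP targets.

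**Figure D2:**
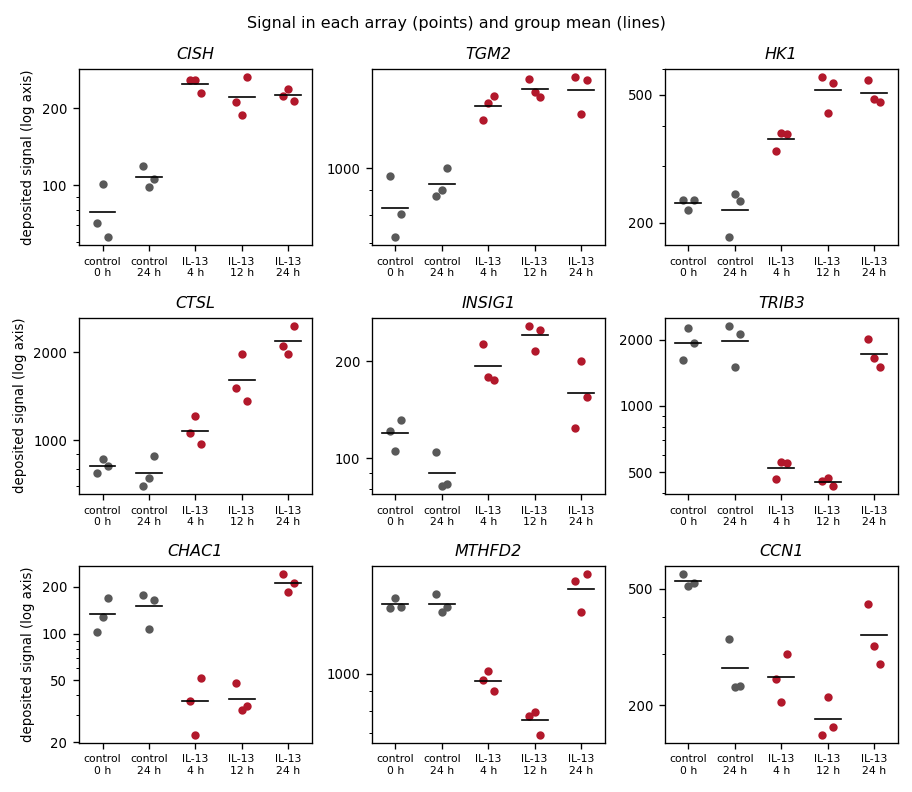
Deposited signal on each array (points, log axis) and group mean (lines) of 9 genes in controls at 0 h and 24 h (grey) and after IL-13 for 4 h, 12 h and 24 h (red), 3 arrays per group. TRIB3, CHAC1 and MTHFD2 are low at 4 h and 12 h of IL-13 and stand near the controls or above them at 24 h, whereas CISH, HK1 and CTSL are still high at 24 h.

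ATF4 is the transcription factor that cells translate when amino acids run short or the endoplasmic reticulum is stressed, and its targets make amino acids and dampen the response. TRIB3, a pseudokinase and feedback inhibitor of ATF4, had signals of 1612, 2262 and 1925 at 0 h and 453.5, 470.7 and 433.1 at 12 h. All 3 of the 12 h arrays lay far below the lowest 0 h array, and TRIB3 fell by 2.03 ± 0.15 on the log2 scale (4.10-fold, limma adjusted p = 4.74e-07). CHAC1, which degrades glutathione, had signals of 102.1, 127.7 and 169.9 at 0 h and 48.2, 32.1 and 34.1 at 12 h, and fell by 1.4 ± 0.21 (adjusted p = 0.000632). MTHFD2, a mitochondrial folate enzyme, had signals of 1490, 1580 and 1492 at 0 h and 776, 794 and 692 at 12 h. It fell by 0.97 ± 0.09 (adjusted p = 8.88e-06), and its groups were far apart. PSAT1, which makes serine, fell by 0.76 ± 0.10, and CEBPG, a partner factor of ATF4, by 0.83 ± 0.11. Asparagine synthetase ASNS had signals of 972, 1060 and 747 at 0 h and 467, 480 and 404 at 12 h, and fell by 0.96 ± 0.17 (adjusted p = 0.00218). ASNS, NUPR1, STC2 and ATF4 itself are named after their values were seen. NUPR1, a stress-induced chromatin protein, fell by 1.02 ± 0.16, and the secreted glycoprotein STC2 by 0.63 ± 0.13. ATF4 fell by 0.41 ± 0.10 (adjusted p = 0.0315), and its call was lost without any 1 array except 0 h array c.

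Of the 34 tested genes in the ATF4 and unfolded protein response list, 11 were called lower, against 2.59% of all tested genes, and 1, the endoplasmic reticulum disulfide isomerase PDIA4 (0.46 ± 0.12), was called higher. The list's median was -0.31, and 7 of its 34 genes had a difference above 0. Of the unfolded protein response members, HSPA5 (0.024), HSP90B1 (0.195), DNAJB9 (-0.035) and CALR (0.064) were not called. Nor were HERPUD1 (-0.344), XBP1 (-0.353) and ATF6 (-0.356), or, elsewhere on the list, DDIT3 (-0.142) and DDIT4 (-0.357). All of these uncalled genes are named after their values were seen. Against the midpoint of the 0 h and 24 h controls, 16 of the 34 genes were called lower and 0 higher. HERPUD1 (-0.44), XBP1 (-0.46) and DDIT4 (-0.80) were among those 16. Against 0 h, the number called lower was 8 to 10 without any 1 array. On a scale where each gene is centred on its mean over 15 arrays, the median of the 34 genes was 0.06 to 0.10 across the 0 h arrays and -0.33 to -0.19 across the 12 h arrays.

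**Figure D3:**
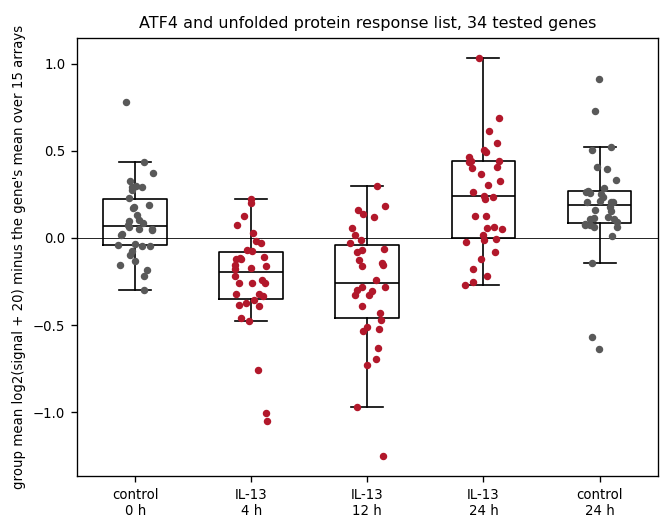
Group mean log2 of signal plus 20, minus the gene's mean over all 15 arrays, for each of the 34 tested genes of the ATF4 and unfolded protein response list (points) in 5 groups of 3 arrays. Boxes span the quartiles with the median as a line, and whiskers reach the farthest gene within 1.5 box lengths; the boxes of IL-13 at 4 h and 12 h lie lowest.

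Aminoacyl-tRNA synthetases load amino acids onto tRNA, and several are known targets of ATF4. Of 16 tested, 7 were called lower, against 2.59% of all tested genes, and none higher. The median was -0.42, and 4 of the 16 had a difference above 0. SARS1 fell by 0.68 ± 0.11 (adjusted p = 0.00181) from 764, 837 and 641 at 0 h to 421, 461 and 463 at 12 h, with no overlap. GARS1 fell by 0.69 ± 0.12, AARS1 by 0.56 ± 0.12, TARS1 by 0.55 ± 0.11 and YARS1, named after its values were seen, by 0.72 ± 0.16. TARS1 lost its call without 12 h array c (adjusted p = 0.054), and YARS1 without 0 h array a or b or 12 h array a or c. Without 0 h array b or 12 h array c the number called lower was 4.

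The letters TGATGNAA, the composite element that dimers of ATF4 with C/EBP factors bind, were searched after these values were seen. They were present, on either strand, in 11 of 146 promoters of genes called lower (7.53%), in 3.41% of genes called higher, in 1.79% of tested genes and in 3.67% of all promoters. The 11 included AARS1, ASNS, CHAC1 and TARS1. They did not include TRIB3, MTHFD2, PSAT1, CEBPG, NUPR1, STC2, SARS1, GARS1 or YARS1, for want of a match or of a promoter entry. The 250 bases upstream of CHAC1 (chr15:40953221-40953470, plus strand) and ASNS (chr7:97872409-97872658, minus strand) are printed because both genes fell and both hold the element, in capitals. In CHAC1 it reads on the opposite strand.
CHAC1: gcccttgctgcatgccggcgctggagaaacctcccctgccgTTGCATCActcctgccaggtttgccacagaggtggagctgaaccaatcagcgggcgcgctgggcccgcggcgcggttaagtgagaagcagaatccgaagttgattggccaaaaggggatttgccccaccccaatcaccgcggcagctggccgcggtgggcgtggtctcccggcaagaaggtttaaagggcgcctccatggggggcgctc
ASNS: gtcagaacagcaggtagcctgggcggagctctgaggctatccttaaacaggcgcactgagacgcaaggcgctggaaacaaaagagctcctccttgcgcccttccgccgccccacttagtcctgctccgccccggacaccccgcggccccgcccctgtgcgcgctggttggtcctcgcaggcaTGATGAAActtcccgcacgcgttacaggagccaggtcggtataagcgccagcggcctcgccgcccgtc
The match in ASNS begins at position -68 from the start and that in CHAC1 at position -209. The 3 genes called higher with TGATGNAA were HK1 at position -45, BCL6 at position 24 and NDUFS6 at position -231.

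Immediate-early genes, which growth factors and stress switch on within minutes, and feedback genes of MAPK signalling formed the list with the lowest median. Of 25 tested, 12 were called lower, against 2.59% of all tested genes, and none higher, and the median was -0.45. CCN1, a matricellular protein, had signals of 558.8, 510.2 and 522.6 at 0 h and 159.1, 213.4 and 168.3 at 12 h. It fell by 1.43 ± 0.17 (2.69-fold, adjusted p = 9.68e-05), with its second probe set at -1.21. CCN2, its relative, had signals of 249.3, 334.6 and 174.5 at 0 h and 106.8, 99.5 and 121.9 at 12 h, and fell by 1.03 ± 0.19 (adjusted p = 0.00370). The groups did not overlap for either gene. DUSP5, a phosphatase of ERK, fell by 0.80 ± 0.13, KLF4 by 0.80 ± 0.13 and IER3 by 0.77 ± 0.10. The other tested phosphatases of the list, DUSP1 (-0.339), DUSP4 (0.172) and DUSP10 (0.02), were not called. Nor were the feedback genes SPRY2 (-0.19), SPRY4 (0.007) and SPRED2 (-0.35). These uncalled genes are named after their values were seen. FOSL1, KLF6, PHLDA1 and EGR1 are named after their values were seen. FOSL1, an AP-1 subunit, fell by 0.93 ± 0.16 and PHLDA1 by 0.76 ± 0.13, although 2 of the 4 other probe sets of PHLDA1 stood at -0.06 and -0.02. KLF6 fell by 1.02 ± 0.23 and lost its call without 0 h array b or c or 12 h array c. EGR1 fell by 0.69 ± 0.17 and lost its call without any 1 array. The number called lower on the list was 7 without 0 h array b or c or 12 h array c, and 8 to 9 without the others.

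**Figure D4:**
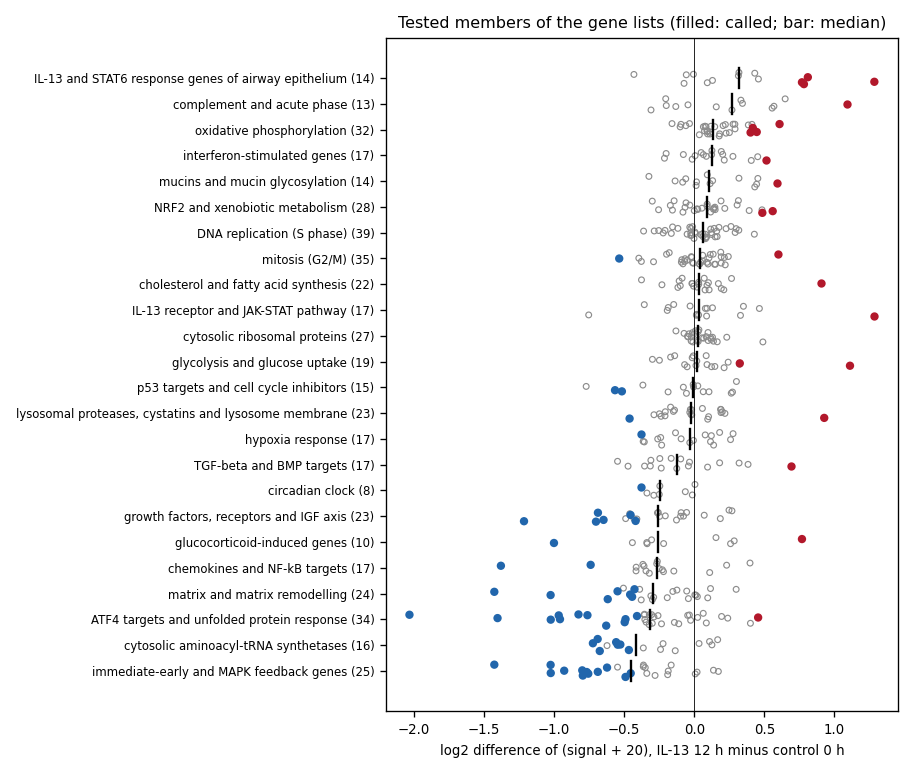
Log2 difference between IL-13 at 12 h and control at 0 h of every tested member of 24 gene lists (number tested in brackets), with called genes filled (red higher, blue lower) and the list median as a bar. Immediate-early genes, tRNA synthetases and ATF4 targets have the lowest medians, and IL-13 and STAT6 response genes the highest.

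CXCL2, a neutrophil chemokine, had signals of 130.8, 129.0 and 138.3 at 0 h and 42.3, 29.6 and 48.4 at 12 h. It fell by 1.38 ± 0.14 (2.60-fold, adjusted p = 1.42e-05) on a probe set that can cross-hybridize. Its near relative CXCL1, with which it can share signal, fell by 0.74 ± 0.19 (adjusted p = 0.0345) and lost its call without any 1 of the 12 h arrays. They were the 2 called genes of 17 tested in the chemokine and NF-kB list, whose median was -0.27. The monocyte chemokine CCL2, named after its values were seen, stood at 0.40 and was not called (limma adjusted p = 0.349). CCL2 was called lower in the 24 h controls than in the 0 h controls (-1.2 ± 0.21). It was called higher at 12 h of IL-13 against the midpoint of these controls (1.0 ± 0.18). With IL-13 at 24 h it was called higher against the 24 h controls (0.90 ± 0.21). EREG, a ligand of the EGF receptor, had signals of 316.6, 331.9 and 321.1 at 0 h and 130.0, 136.2 and 114.5 at 12 h. Its groups were far apart, and it fell by 1.22 ± 0.12 (2.32-fold, adjusted p = 8.88e-06). TGFB2 fell by 0.69 ± 0.13, with its other 3 probe sets at -0.57 to -0.10 and no call for their mean (adjusted p = 0.114). Endothelin EDN1 fell by 0.46 ± 0.10, lost without 0 h array c or 12 h array c. The insulin receptor substrate IRS2 fell by 0.70 ± 0.15, with its second probe set at -0.31. Its call was lost without 0 h or 12 h array b, and for the mean of its probe sets. IGFBP3, which binds IGF and is named after its values were seen, fell by 0.65 ± 0.15, lost without array a or b of either group. In all, 6 of 23 tested growth factor, receptor and IGF genes were called lower, against 2.59% of all tested genes, with a median of -0.26 and 3 called lower without 0 h array b.

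Of 24 tested matrix genes, 7 were called lower, against 2.59% of all tested genes, CCN1 and CCN2 among them, and the median was -0.29. The proteoglycan VCAN fell by 0.62 ± 0.13 (adjusted p = 0.00999), with all 4 other probe sets lower (-0.61 to -0.25), and lost its call without 0 h array a. Basement membrane collagen COL4A1 fell by 0.55 ± 0.14, lost without 0 h array a or b or 12 h array b or c. The number of matrix genes called lower was 2 without 0 h array a and 3 without 0 h array b, 12 h array b or 12 h array c. The gap junction protein GJA1, named after its values were seen, fell by 0.79 ± 0.13 (adjusted p = 0.00155). TSC22D3, known for its induction by glucocorticoids, had signals of 292.4, 264.7 and 303.9 at 0 h and 118.0, 145.5 and 132.1 at 12 h. It fell by 1.0 ± 0.12 (2.00-fold, adjusted p = 9.68e-05), with a dim second probe set at -0.27, while the median of the 10 tested glucocorticoid-induced genes was -0.26.

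The 12 largest falls included 6 further genes. AADAC, an arylacetamide deacetylase, fell by 1.05 ± 0.19, and CDC42EP1, an effector of CDC42, by 1.22 ± 0.20. RBM10, a splicing regulator, fell by 1.05 ± 0.20, with its other 2 probe sets at -0.80 and -0.40. RUSC2 fell by 1.24 ± 0.27 (adjusted p = 0.0116) and lost its call without 12 h array a or c. ARHGDIA had signals of 266.2, 211.0 and 298.6 at 0 h and 131.2, 95.9 and 95.4 at 12 h. It fell by 1.12 ± 0.18 (adjusted p = 0.00133), with its other 3 probe sets at -0.84 to -0.49. NPIPA1 stood at -2.01 ± 0.28 (adjusted p = 0.000335) on a cross-hybridizing probe set of a multigene family, so the value is uncertain as to the gene.

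Groups with few or no called genes are given for completeness. Of 32 tested oxidative phosphorylation genes, 4 were called higher, against 1.55% of all genes, with a median of 0.13. NDUFS3 rose by 0.61 ± 0.14, NDUFB8 by 0.45 ± 0.10, COX7C by 0.42 ± 0.12 and COX7B by 0.40 ± 0.10. The other 2 probe sets of NDUFB8 stood at 0.25 and -0.02, and the mean of its probe sets was not called. NDUFS3 lost its call without 0 h array a or 12 h array c, NDUFB8 without 0 h array b or c or 12 h array c, COX7B without array a or b of either group, and COX7C without any 1 array. The count was 0 under median scaling, 1 without 0 h array a or b or 12 h array c, and 2 without 0 h array c or 12 h array b. Of 35 tested mitotic genes KIF20A, a kinesin of cytokinesis, rose (0.60 ± 0.12) and CDC25B, a phosphatase that activates CDK1, fell (-0.54 ± 0.12), with a list median of 0.038. KIF20A lost its call without 12 h array c (adjusted p = 0.053), and CDC25B without array b or c of either group. Of 39 tested DNA replication genes and 27 cytosolic ribosomal protein genes 0 were called by limma. Among 17 interferon-stimulated genes only IRF9 was called (0.51 ± 0.14, adjusted p = 0.0392), and it kept that call without 12 h array a but not without any other array.

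IL-13 at 12 h was next compared with IL-13 at 4 h, to ask what changed between these times. By limma 0 of 6884 genes were called, the smallest adjusted p was 0.0677, and 697 genes (10.1%) had an unadjusted p under 0.05. The count was 3 without 12 h array a and 4 with only the compared groups in the model. For CISH the difference was -0.15 (95% interval -0.45 to 0.15), for TRIB3 -0.20 (-0.52 to 0.12) and for CHAC1 0.03 (-0.40 to 0.47). CTSL differed by 0.53 (0.27 to 0.79), HK1 by 0.47 (0.21 to 0.73) and OLFML2A by 0.79 (0.40 to 1.17). The genes with the smallest p were ARHGDIA (-1.07), SMARCC2 (-0.61), FOXM1 (-0.75), CTNNAL1 (-0.41) and ID1 (0.56). ARHGDIA had mean signals of 258.6 at 0 h, 246.2 at 4 h and 107.5 at 12 h, and 100.4 in the 24 h control. Against 0 h, 84 genes (1.22%) were called at 4 h. Both times share the 0 h arrays, so their differences are given side by side: TRIB3 stood at -1.83 and -2.03, CXCL2 at -1.44 and -1.38, CCN1 at -1.0 and -1.43 and CISH at 1.44 and 1.29 at 4 h and 12 h.

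Between 12 h and 24 h of IL-13, 427 genes (6.2%) were called, 285 higher (4.14%) and 142 lower (2.06%). Higher calls were 66.7% of these, and 83.3% under median scaling. TRIB3 rose by 1.87 ± 0.15 (adjusted p = 7.38e-07), from a mean signal of 452.5 at 12 h to 1721 at 24 h, beside 1933 at 0 h and 1980 in the 24 h control. CHAC1 rose by 2.01 ± 0.21, from 38.1 to 212.1, and MTHFD2 by 1.10 ± 0.09, from 754.2 to 1672. PMAIP1, a BH3-only cell death gene, rose by 1.69 ± 0.14, TSC22D3 by 1.51 ± 0.12, IFRD1 by 1.43 ± 0.14 and AADAC by 1.34 ± 0.19. Of the 34 ATF4 and unfolded protein response genes, 18 were called higher and none lower, with a median of 0.50 beside -0.00559 over all genes. Of the 16 tRNA synthetases 7 were called higher and 0 lower, and of the 25 immediate-early genes 10 higher and 1 lower. Of the 12 largest falls at 12 h against 0 h, 9 were called higher at 24 h than at 12 h, and of the 16 largest rises 3 (HSPA2, FOLR1 and INSIG1) were called lower and 2, CTSL (0.50 ± 0.12) and MMD (0.57 ± 0.11), higher still. These counts share the 12 h arrays with the comparison that chose the genes. HSPA2 fell by 1.23 ± 0.15, from a mean signal of 966 to 405.6, and the chaperone cofactor STIP1 by 0.96 ± 0.16. Of 35 mitotic genes 10 were called lower, KIF20A (-0.84 ± 0.12) among them, and of 39 DNA replication genes 6. The mitotic count was 6 without 12 h array a and 5 without 12 h array c, and the replication count was 3 without 12 h array b or 24 h array a. The number of genes called was 194 to 373 with 1 array left out, lowest without 12 h array a, and 204 without 12 h array c, 253 without 24 h array a and 229 without 24 h array c. The histone variant H2AX fell by 0.97 ± 0.11, the kinase CAMKK2 by 0.89 ± 0.16, H6PD, a dehydrogenase of the endoplasmic reticulum, by 0.92 ± 0.26, and NT5DC2 by 0.85 ± 0.16.

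The controls give 2 partial views of time in culture. First, the 24 h controls differed from the 0 h controls in 249 genes (3.62%), with 1.73% of all tested genes called higher and 1.89% lower. Of the 16 largest rises at 12 h, 3 were also called higher in the 24 h controls: FOLR1 (0.66 ± 0.16), BATF3 (0.49 ± 0.13) and MMD (0.48 ± 0.11). SLC26A2 was called lower there (-0.48 ± 0.10). Of the 12 largest falls, ARHGDIA (-1.32 ± 0.18) and CCN1 (-0.94 ± 0.17) were also called lower without IL-13, as was FOSL1 outside those 12 (-0.67 ± 0.16). TRIB3 (0.13 ± 0.15), CHAC1 (0.07 ± 0.21) and MTHFD2 (0.13 ± 0.09) were not called in the controls. Second, IL-13 at 12 h was set against the midpoint of the 0 h and 24 h controls, which takes an untreated 12 h culture to lie midway between them, an assumption that these arrays cannot check. In that comparison 494 genes (7.18%) were called, 217 higher (3.15%) and 277 lower (4.02%), a share of higher calls of 43.9% (against 56.2% when arrays were scaled on the median of the tested genes), and 284 to 585 with 1 array left out. It was 284 without 12 h array a, 308 without 12 h array b and 301 without 12 h array c. TRIB3 fell by 2.10 ± 0.13, CHAC1 by 1.44 ± 0.18, HK1 rose by 1.16 ± 0.11, CISH by 1.16 ± 0.12 and INSIG1 by 1.14 ± 0.13. All 16 largest rises and 11 of the 12 largest falls were called in the same direction, ARHGDIA excepted (-0.46 ± 0.16, adjusted p = 0.0852). The main and midpoint comparisons share the 12 h and 0 h arrays. Directly against the 24 h controls, IL-13 at 12 h differed in 673 genes (9.78%), TRIB3 at -2.16 and HK1 at 1.20 among them.

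The time-matched comparison of IL-13 with control at 24 h uses none of the 6 arrays and shows which of the 12 h differences recurred. It called 482 genes (7%), with 3.94% of all tested genes higher and 3.07% lower. Median signals were 69.5 ± 3.1 in the 24 h controls and 59.3 ± 4.45 with IL-13 at 24 h (mean ± SD, n = 3). This comparison was not rerun with another scaling or with an array left out. Of the 285 genes called at 12 h against 0 h, 66 were called in the same direction there, which is 23.2% of the 12 h list and 13.7% of the 24 h list. Among the 107 genes called higher, 40 (37.4%) recurred, and among the 178 called lower, 26 (14.6%). The same sign was held by 196 of the 285 (68.8%), beside 53.3% of all tested genes. Of the 16 largest rises 12 were called higher at 24 h as well: CTSL stood at 1.41 ± 0.12, C3 at 1.39 ± 0.26, HK1 at 1.15 ± 0.13 and CISH at 1.03 ± 0.14. The other 4 rises, BATF3, AQP3, FOLR1 and HSPA2, were not called. Of the 14 tested IL-13 and STAT6 response genes, CISH, TGM2 and HMOX1 were called higher at 24 h. MUC5AC (-0.94) and CA12 (-0.62) were called lower, and that list's median was 0.058. HMOX1 and CA12 are named after their values were seen. None of the 12 largest falls was called at 24 h, in a comparison where limma called 3.07% of all tested genes lower. TRIB3 stood at -0.30 ± 0.15 there and CCN1 at 0.34 ± 0.17. Of the 34 ATF4 and unfolded protein response genes 1 was called higher and 1 lower at 24 h, with a median of -0.031, and of the 16 tRNA synthetases 0 were called by limma. VCAN (-1.12 ± 0.13), IRS2 (-0.95 ± 0.15), IGFBP3 (-0.63 ± 0.15) and GJA1 (-0.48 ± 0.13) did recur as falls. For VCAN the 24 h controls were themselves called higher than the 0 h controls (0.89).

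**Figure D5:**
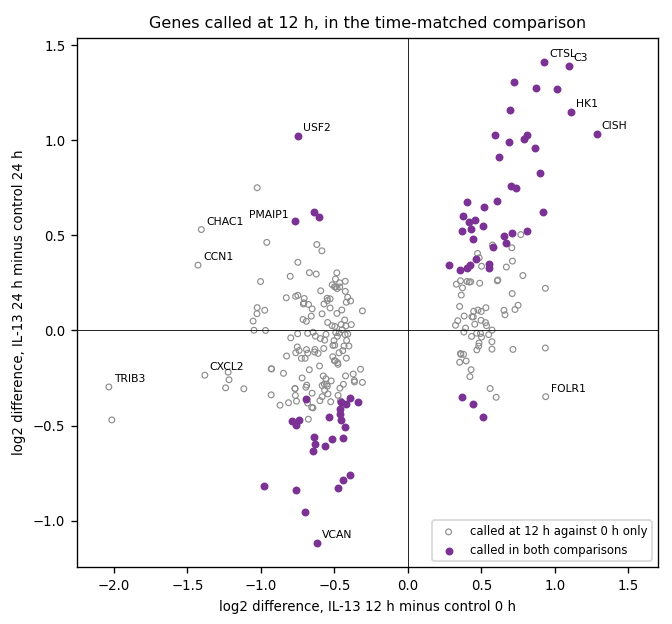
Log2 difference of the 285 genes called at 12 h against 0 h (x axis) and the difference of the same genes between IL-13 and control at 24 h (y axis), filled where both were called. Genes that rose at 12 h lie mostly above the horizontal line, whereas the falls of TRIB3, CCN1, CHAC1 and CXCL2 have 24 h differences from -0.30 (TRIB3) to 0.53 (CHAC1), none called.

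The difference between the 2 comparisons was tested directly, as the 24 h difference less the 12 h difference, and 117 genes (1.7%) were called, 78 of them positive. Many named genes were chosen for a large 12 h difference, which is subtracted here. That choice alone pushes chosen falls towards positive values and chosen rises towards negative ones. TRIB3 differed by 1.74 ± 0.21 and MTHFD2 by 0.97 ± 0.13 (limma adjusted p = 0.00125 for both). CHAC1 differed by 1.94 ± 0.29 (adjusted p = 0.00278), CCN1 by 1.77 ± 0.24 (adjusted p = 0.00125) and CXCL2 by 1.15 ± 0.20 (adjusted p = 0.00612). Of the 34 ATF4 and unfolded protein response genes 7, and of the 16 tRNA synthetases 4, were called, all positive, against 1.13% of all tested genes. CISH (-0.25, adjusted p = 0.556), HK1 (0.04, adjusted p = 0.943) and CTSL (0.48, adjusted p = 0.154) were not called. In opposite directions 7 genes were called: AKTIP, CREB3L2, HAUS2, MEGF9, PDLIM2, PMAIP1 and USF2. All but PMAIP1 are named after their values were seen. USF2, a transcription factor read by a cross-hybridizing probe set, stood at -0.75 ± 0.18 at 12 h and at 1.02 ± 0.18 at 24 h. Its 12 h call was lost without array a or c of either group (highest adjusted p = 0.111). Its mean signal was 292.2 at 0 h, 163.0 at 12 h, 88.6 in the 24 h control and 182.9 with IL-13 at 24 h. RGS2, a regulator of G protein signalling, was not called at 12 h (0.48 ± 0.16, adjusted p = 0.127) and stood at 1.67 ± 0.16 at 24 h, with the controls lower at 24 h than at 0 h (-0.65 ± 0.16).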

How the data were processed

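RNA of A549 cells was measured on 15 one-colour Affymetrix arrays, 3 in each of 5 groups read from the sample titles. Each probe set has a signal intensity, deposited by the authors on a linear scale. The software, normalization and filters behind them are not given in the sources used here; every array has the same trimmed mean, 150 after 2% was cut at each end.

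To each value 20 was added as a pseudocount (25% of the values are no larger), log2 taken and the arrays quantile normalized. Of 22283 probe sets, 68 were controls, 19065 carried 1 symbol in the platform annotation (19053 matched through their Entrez number), 1043 several and 2107 none. Each of 11963 genes was represented by its brightest probe set, with cross-hybridizing sets (_x_at) used only where there was no other. Genes with a mean log2 above the median of 6.33 were tested, 6884 in all. R 4.3.3 and limma 3.58.1, with all 5 groups in 1 model, a variance trend and 10 residual degrees of freedom, gave differences and p-values, adjusted by Benjamini-Hochberg over all tested genes. The number of arrays limits the precision.

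Genes named were the 16 largest rises and 12 largest falls among called genes whose arrays did not overlap, the 6 largest each way in the midpoint and 24 h against 12 h comparisons, the 5 smallest p-values against 4 h, up to 4 called members of each list with the smallest p, and 18 genes of the pathway and its known responses. Genes outside this rule were chosen with their values in view, as the text says of each, and so were PDIA4 and NDUFS6. The members and gene lists were chosen with earlier results of these data known. Alternatives changed the scaling, pseudocount, brightness filter, probe set rule, variance trend, array weights and groups in the model, added the replicate letter as a block, and left out each array in turn. They were run for 12 h against 0 h, against the midpoint and against 4 h, and for 24 h against 12 h. The time-matched comparison, the test of the difference between comparisons and the other contrasts were not rerun. Leaving arrays out of the gene list counts at 24 h against 12 h was chosen after seeing the data.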

Additional observations from a re-analysis of the deposited data

Results flagged for a closer look

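For 29 named genes the difference between IL-13 and control at 24 h departed from the difference between IL-13 at 12 h and control at 0 h, by limma's test of the difference itself (adjusted p between 0.00125 and 0.0461). The values are the 24 h difference less the 12 h difference, on the log2 scale. The pair of comparisons shares no array, but the first is matched for time and the second is not. Many of these genes were chosen for their 12 h difference, which these values subtract. That choice alone pushes falls towards positive values and rises towards negative ones, so the signs below are partly set by it.

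ATF4 targets and tRNA synthetases among these genes were all on the positive side. CHAC1 differed by 1.94, TRIB3 by 1.74, ASNS by 1.42, NUPR1 by 1.14, CEBPG by 1.0, MTHFD2 by 0.97 and PSAT1 by 0.94. The synthetases SARS1, GARS1 and TARS1 differed by 0.81, 0.74 and 0.70. MTHFD2 stood at -0.97 at 12 h and at 0.00 at 24 h.

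Immediate-early and secreted factors were positive too. CCN1 and KLF6 each differed by 1.77, CXCL2 by 1.15, CCN2 by 1.11, KLF4 by 1.08, EREG by 0.96 and DUSP5 by 0.76. Among other genes USF2 differed by 1.77, PMAIP1 by 1.34, TSC22D3 and AKTIP each by 1.26, RGS2 by 1.19, IFRD1 by 1.11 and CTNNAL1 by 0.56.

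Negative values were found for 5 named genes. FOLR1 differed by -1.29, HSPA2 by -1.03, KIF20A by -0.95, H2AX by -0.90 and CYP1B1 by -0.87. HSPA2 stood at 0.94 at 12 h and at -0.09 at 24 h.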

How the results depend on the processing

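Of 1806 recalculations of named genes, 1601 kept direction and side of the threshold, 191 lost the call, 2 gained one and 12 changed sign. Of 84 called genes, 44 kept their call under every alternative run. The sign changes touched 4 genes. STAT6, not called, stood at 0.00 with deposited scaling, -0.058 with median scaling and -0.23 with the mean of probe sets, and from -0.032 to 0.10 with 1 array left out. NT5DC2 stood at -0.03 with median scaling and from -0.013 to 0.19 with 1 array left out, and MUC5AC at -0.004 with array weights and from -0.21 to 0.30. KRT7, called lower, stood at 0.12 with the mean of probe sets, which includes its dim set.

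Leaving out 1 array gave 136 to 187 calls against 0 h (44 to 65 higher, 82 to 123 lower), 284 to 585 against the midpoint, 0 to 3 against 4 h and 194 to 373 for 24 h against 12 h. Median scaling gave 47 higher calls against 0 h, 310 calls against the midpoint and 1 against 4 h, and a pseudocount at the median also gave 1 against 4 h. With only the compared groups in the model 4 genes were called against 4 h. The other alternatives gave 215 (no filter) to 392 (each probe set on its own) calls against 0 h. Apart from the scaling and the lower number of arrays, which the alternatives change by construction, the cause of these shifts was not tested. Of 216 counts of list members, 190 stayed within 1.5 times the main count and 26 did not.

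With the replicate letter as a replicate block, 235 genes were called against 0 h (86 higher, 149 lower), 408 against the midpoint, 0 against 4 h and 360 for 24 h against 12 h. Deviations of arrays with the same letter correlated at -0.00563 (a), 0.093 (b) and -0.129 (c) between the 0 h and 12 h groups. These values show no strong shared effect of the letter in those groups. They cannot show whether arrays of the same letter were cultured or processed together.

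Genes in the dim lower part of the arrays were not tested, among them IL4R, IL13RA2 and SOCS1. The pseudocount makes differences of dim genes smaller than those of their signals. A gene is read by 1 probe set, and some genes have others that differ. No untreated 12 h culture is labelled.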
